A study of Mus musculus with 8 samples.

Results

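The neutrophil granule genes were followed in common lymphoid progenitors, marrow cells with B, T and other lymphoid potential. They are Mpo, Elane, Prtn3 and Ctsg of the primary granule, Ltf, Camp, Ngp and Lcn2 of the secondary granule, and S100a8 and S100a9, whose products lie in the neutrophil cytosol. The genes were taken by symbol, each had exactly 1 probe set, and they make up 10 of 18193 genes named by a single-gene probe set and 10 of 11957 genes tested. The list was drawn up after the values of HEB knockout and WT arrays were known, so every value of HEB knockout cells below is a description and carries no test. The E2A knockout arrays were compared with those same WT arrays.

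The cells were sorted from marrow of C57BL/6 mice of 10 to 13 weeks as LIN- FLT3+ CD127+ LY6D- cells. There were 4 arrays of E2A knockout cells, 2 of HEB knockout cells and 2 of wild-type (WT) cells. E2A is the product of Tcf3 and HEB that of Tcf12, both basic helix-loop-helix proteins that bind E box letters in DNA and are needed for early lymphoid development. Each array held RNA of cells pooled from several marrows, amplified with a small-sample labelling protocol, and it is not settled that each E2A knockout array had a sort of its own. The p-values below therefore rest on the spread among such pools, not among single animals.

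Neutrophil precursors fill their granules in waves. Primary granule proteases and myeloperoxidase are made first, at the promyelocyte stage and already at some level in myeloid-primed progenitors, and the secondary granule proteins follow once cells have become myelocytes. S100A8 and S100A9 form the calprotectin dimer, which is abundant in maturing neutrophils and in monocytes. In bulk RNA, a change in the number of cells of a type and a change in RNA per cell cannot be told apart.

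The 2 groups of genes differed in how they varied over the arrays. The secondary granule and S100 genes ran over 20.5-fold (Lcn2) to 106-fold (S100a8) between their lowest and highest array, with HEB KO 2 highest for 6 of 6 genes. The primary granule genes ran over 1.56-fold (Elane, which lay near the array median) to 10.7-fold (Ctsg). A HEB knockout array was highest for none of the 4. No gene of the 10 was called in E2A knockout against WT cells, where called means a Benjamini-Hochberg adjusted p under 0.05 in limma over all 11957 genes. In that comparison 0.443% of all genes were called, and at an unadjusted p under 0.05 the count was 0 of 10 granule genes and 1599 of all genes. Every E2A knockout array was above both WT arrays for 0 of the 10 genes and for 9.98% of all genes, and below both for 0 of the 10 and for 15.4%.

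The targeted genes and sorting markers were read first. Tcf3 lay at 3.71 to 4.28 log2 intensity on the E2A knockout arrays, against 7.76 and 7.98 on the WT arrays (log2 difference -3.89, limma adjusted p = 0.0004). Tcf12 lay at 7.10 and 6.49 on the HEB knockout arrays, against 8.85 and 8.76 on the WT arrays (log2 difference -2.01), a difference that limma did not call. Flt3 was at 10.12 to 11.05 on all 8 arrays. Il7r, which encodes CD127, fell in E2A knockout cells (log2 difference -2.15, limma adjusted p = 0.0330). That call was lost when either WT array, either HEB knockout array, both WT 2 and HEB KO 1, or E2A KO 1 was left out. It was also lost with only the compared genotypes, a replicate block, the hybridization control covariate or every probe set on its own. Ly6d, the marker the gate selects against, was at 6.75, 4.48, 4.26 and 6.88 on the E2A knockout arrays, 7.52 and 3.63 on the HEB knockout arrays, and 3.53 and 7.83 on the WT arrays. E2A KO 1 and 4 thus stood above E2A KO 2 and 3. Ly6d also split both the HEB knockout and the WT pair, with HEB KO 1 and WT 2 high. The same 2 arrays were the higher of their pair for Rag1, a recombinase subunit, at 8.49 and 5.81 on the HEB knockout and 5.97 and 9.57 on the WT arrays, and for Vpreb1, a part of the surrogate light chain, at 6.67 and 4.53 on the HEB knockout and 3.78 and 8.42 on the WT arrays. The granule gene values are therefore also given without WT 2 and HEB KO 1, and the part of this split in them was not tested. That fit keeps all 4 E2A knockout arrays, so its E2A knockout to WT differences are not matched for Ly6d. Median intensity per array was 14.11 to 15.38, but the control probe sets were less even. WT 2 and HEB KO 1 had the lowest hybridization controls (mean 10.292 and 10.318 log2) and poly-A controls (6.599 and 6.051). E2A KO 3 had the highest of both, 12.622 and 10.044, and HEB KO 2 lay between, at 11.598 and 9.188. The 3' minus 5' difference of the actin control probe sets was lowest on the HEB knockout arrays, at 3.371 and 3.579 log2. It was 3.843 to 4.781 on the other arrays. Beyond a fit with the hybridization controls as covariate, the part of these control values in the granule gene values was not tested.

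**Figure D1:**
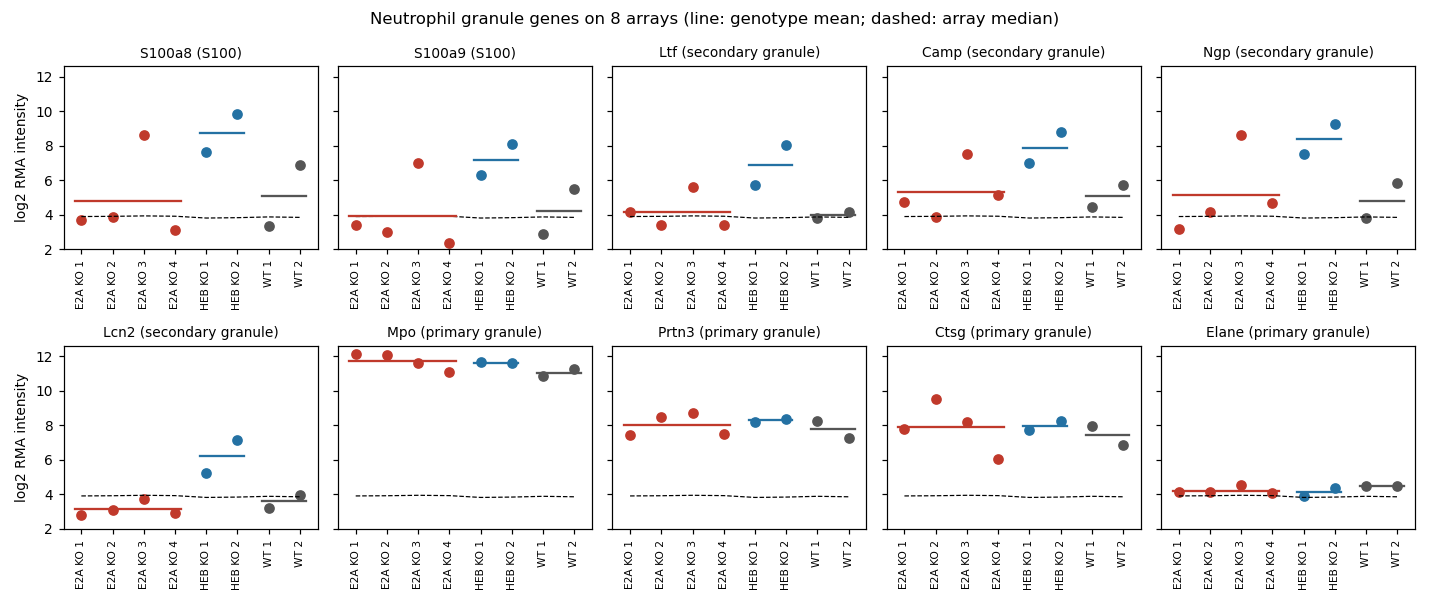
Log2 RMA intensity of each of the 10 genes (vertical axis) on each of the 8 arrays (horizontal axis), with a line at each genotype's mean and a dashed line at the array medians. HEB KO 2 is highest in all 6 secondary granule and S100 panels, E2A KO 3 stands well above the other E2A knockout arrays for S100a8, S100a9, Camp and Ngp, and the primary granule panels show no such shape.

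S100a8 encodes the smaller calprotectin subunit, a calcium-binding protein that holds zinc and manganese away from microbes. Its log2 intensity was 3.69, 3.90, 8.63 and 3.11 on the E2A knockout arrays 1 to 4, 7.66 and 9.84 on the HEB knockout arrays 1 and 2, and 3.35 and 6.87 on the WT arrays 1 and 2. A single E2A knockout array was thus within the range of the HEB knockout arrays, the other 3 were near the lower WT array, and the WT arrays themselves stood 3.52 log2 units apart. E2A knockout and WT cells differed by -0.28 (SE 1.55, 95% interval -3.79 to 3.23, limma adjusted p = 0.9489), less than the spread between arrays. Leaving out WT 2 turned this difference to 1.48, and leaving out E2A KO 3 moved it to -1.54. Its probe set is of a kind that can also detect related transcripts, so the level may not be of S100a8 alone.

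S100a9, which encodes the partner subunit and lies 22.6 kb from S100a8 on chromosome 3, had log2 intensities of 3.44, 3.00, 6.99 and 2.36 in E2A knockout cells, 6.29 and 8.09 in HEB knockout cells, and 2.91 and 5.49 in WT cells. The order of the 4 highest arrays was that of S100a8: HEB KO 2, E2A KO 3, HEB KO 1 and WT 2. Over the 8 arrays the pair had a Pearson r of 0.996, the highest of the 15 pairs among secondary granule and S100 genes. E2A knockout and WT cells differed by -0.25 (SE 1.24, limma adjusted p = 0.9428), and by 1.04 without WT 2.

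The promoter of S100a8 is shown because its gene had the widest range of the 10. The stretch runs from 150 bases before to 50 bases after the RefSeq start at GRCm38.p6 chr3:90668921-90669120, plus strand. Capitals mark the E box letters CANNTG, which E proteins are known to bind, the C/EBP core letters TTNNGNAA and the TATA box TATAAA.
S100a8: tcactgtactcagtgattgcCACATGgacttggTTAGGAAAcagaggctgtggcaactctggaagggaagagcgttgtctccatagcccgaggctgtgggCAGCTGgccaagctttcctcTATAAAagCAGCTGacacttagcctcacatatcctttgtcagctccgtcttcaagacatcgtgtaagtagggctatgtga

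Ngp, which encodes neutrophilic granule protein, a cystatin-like protein of the mouse secondary granule, had log2 intensities of 3.21, 4.16, 8.65 and 4.71 on the E2A knockout arrays. It had 7.55 and 9.25 on the HEB knockout arrays, and 3.80 and 5.84 on the WT arrays. E2A KO 3 exceeded HEB KO 1 and lay 4.62 log2 units above the mean of the other 3 E2A knockout arrays. The E2A knockout to WT difference was 0.36 (SE 1.33, limma adjusted p = 0.9231), and without E2A KO 3 it was -0.80.

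Camp, which encodes the cathelicidin precursor of an antimicrobial peptide, had log2 intensities of 4.76, 3.87, 7.53 and 5.17 on the E2A knockout arrays, 7.01 and 8.79 on the HEB knockout arrays, and 4.46 and 5.73 on the WT arrays. It ranked the 4 highest arrays as Ngp did, and the genes lie 0.57 Mb apart on chromosome 9. The E2A knockout to WT difference was 0.24 (SE 0.92, limma adjusted p = 0.9264), and without E2A KO 3 it was -0.49.

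Ltf encodes lactoferrin, the iron-binding protein of the secondary granule, and lies 0.60 Mb from Ngp on chromosome 9. Its log2 intensity was 4.19, 3.42, 5.60 and 3.40 on the E2A knockout arrays, 5.71 and 8.05 on the HEB knockout arrays, and 3.82 and 4.19 on the WT arrays. Here the HEB knockout arrays did not overlap those of the other genotypes, although HEB KO 1 was only 0.11 log2 units above E2A KO 3 and the HEB knockout arrays differed from each other by 2.34. The E2A knockout to WT difference was 0.15 (SE 0.73, limma adjusted p = 0.9439), and without E2A KO 3 it was -0.33.

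Lcn2 encodes lipocalin 2, which binds bacterial siderophores. Its log2 intensity was 2.80, 3.09, 3.75 and 2.90 on the E2A knockout arrays, 5.23 and 7.16 on the HEB knockout arrays, and 3.23 and 3.96 on the WT arrays. It departed from the other 5 genes in that E2A KO 3 lay below WT 2, 0.82 log2 units above the mean of the other E2A knockout arrays. Only 3 of 8 arrays (both HEB knockout arrays and WT 2) were above their array's median, and low RMA values understate differences. E2A knockout and WT cells differed by -0.46 (SE 0.51, limma adjusted p = 0.7132), by -0.09 without WT 2 and by -0.82 without WT 1.

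The HEB knockout arrays exceeded both WT arrays for all 6 of these genes and for Mpo, as did 23.4% of all genes tested, and nothing is read from the count because the genes were chosen on this contrast. The log2 difference was 3.63 for S100a8, 3.58 for Ngp, 2.99 for S100a9, 2.87 for Ltf, 2.80 for Camp and 2.60 for Lcn2. Of all genes tested 7, or 0.0585%, were at least 4-fold higher in HEB knockout than in WT cells, the 6 genes and Chil3. The median difference of the 4 secondary granule genes was 2.84, against 0.086 over all genes, and it was 1.81 without HEB KO 2 and 3.87 without HEB KO 1. Without both HEB KO 1 and WT 2, the arrays of their pairs high in Ly6d, Lcn2 was not tested. The median of Ltf, Camp and Ngp was then 4.33. No gene tested, the targeted Tcf12 included, was called between HEB knockout and WT cells by limma (0.00%), and 312 had an unadjusted p under 0.05. For Ltf and Lcn2 every E2A knockout array was below both HEB knockout arrays, as held for 21.6% of all genes. Between E2A and HEB knockout cells 0.117% of all genes were called by limma, and no call is read for the 10 because HEB knockout values chose them.

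**Figure D2:**
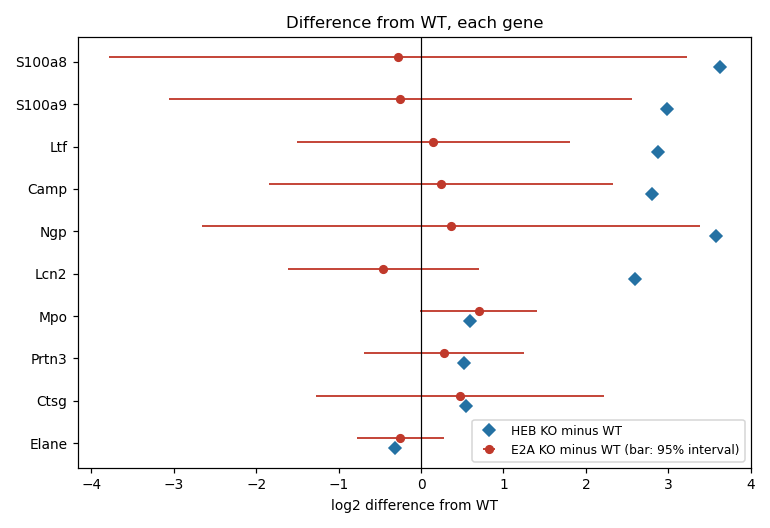
Log2 difference from WT of each gene (horizontal axis) for E2A knockout cells, with the 95% interval of the limma fit, and for HEB knockout cells, without interval because the genes were chosen on that contrast. The 6 secondary granule and S100 genes lie between 2.60 and 3.63 in HEB knockout cells, and all 10 E2A knockout intervals include 0.

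The spread between arrays of a genotype was large for most of the 6 genes. The residual standard deviation was 2.37 log2 units for S100a8, the 4th largest of 11957 genes, 2.03 for Ngp (7th) and 1.89 for S100a9 (9th), against a median of 0.33 over all genes. It was 1.39 for Camp, 1.10 for Ltf and 0.73 for Lcn2. With 2 to 4 arrays per genotype, this spread left the E2A comparison wide intervals, such as that of S100a8 from -3.79 to 3.23.

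**Figure D3:**
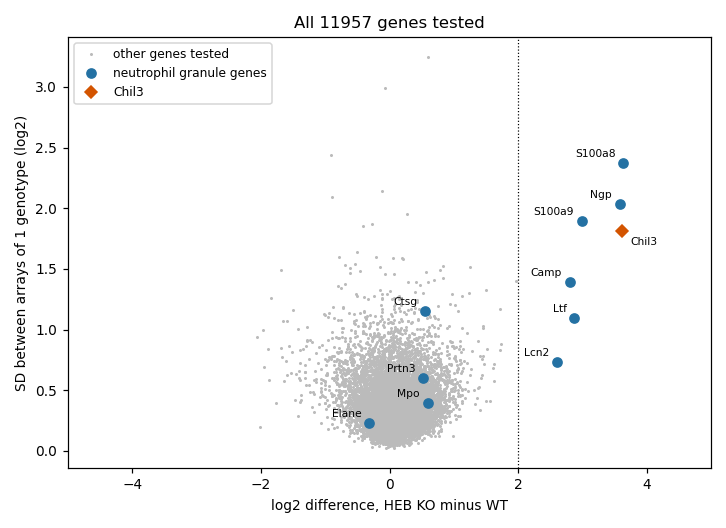
Log2 difference of HEB knockout from WT cells (horizontal axis) against the residual standard deviation between arrays of 1 genotype (vertical axis, log2) for all genes tested. The dotted line marks a 4-fold difference. The 6 secondary granule and S100 genes and Chil3 lie to its right, S100a8 at 3.63 and 2.37.

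Arrays moved as a block over the 6 genes. HEB KO 2 exceeded HEB KO 1 by 1.70 (Ngp) to 2.34 (Ltf) log2 units. WT 2 exceeded WT 1 in all 6, by 0.38 (Ltf) to 3.52 (S100a8). The second rank went to E2A KO 3 for 4 genes (Camp, Ngp, S100a8 and S100a9) and to HEB KO 1 for 2 (Ltf and Lcn2). The Pearson r over the 8 arrays was lowest at 0.81 (Ngp with Lcn2) among the 15 pairs, with a median of 0.93. These correlations are descriptive, since the 8 points share arrays, labelling and normalization and rest on a few high arrays. Among those are the HEB knockout arrays, whose values led to the choice of the genes.

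The mean of the 4 secondary granule genes was 4.45 ± 1.30 in E2A knockout (SD, n = 4), 7.34 ± 1.37 in HEB knockout (SD, n = 2) and 4.38 ± 0.78 in WT cells (SD, n = 2). Per array it was 3.74, 3.64, 6.38 and 4.05 in E2A knockout, 6.37 and 8.31 in HEB knockout, and 3.83 and 4.93 in WT cells. E2A KO 3 and HEB KO 1 were thus at about the same level, 6.38 and 6.37. The mean of the S100 pair gave the same picture, with 3.57, 3.45, 7.81 and 2.74 in E2A knockout, 6.97 and 8.96 in HEB knockout, and 3.13 and 6.18 in WT cells.

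**Figure D4:**
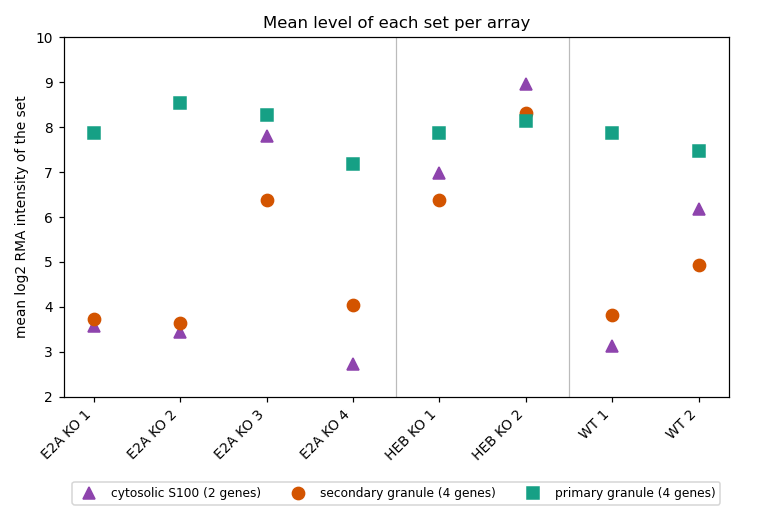
Mean log2 RMA intensity (vertical axis) of the S100 pair (triangles), the 4 secondary granule genes (circles) and the 4 primary granule genes (squares) on each of the 8 arrays (horizontal axis). Secondary granule means run between 3.64 and 8.31 and primary granule means between 7.18 and 8.54. Levels of different sets come from different probes and are not comparable with each other.

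Mpo encodes myeloperoxidase, which makes hypochlorous acid in the phagosome. Its log2 intensity was 12.13, 12.08, 11.63 and 11.10 on the E2A knockout arrays, 11.66 and 11.59 on the HEB knockout arrays, and 10.84 and 11.23 on the WT arrays. The E2A knockout arrays overlapped those of WT, since E2A KO 4 lay below WT 2. The difference from WT was 0.70 (SE 0.31, 95% interval -0.01 to 1.41, limma adjusted p = 0.3786), the largest of the 10 E2A differences in size, and it was not called.

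Prtn3 encodes proteinase 3 and Elane encodes neutrophil elastase, serine proteases whose genes lie 3.1 kb apart on chromosome 10. Prtn3 had log2 intensities of 7.45, 8.45, 8.73 and 7.50 on the E2A knockout arrays, 8.19 and 8.36 on the HEB knockout arrays, and 8.26 and 7.25 on the WT arrays. All genotypes overlapped, and the E2A knockout to WT difference was 0.28 (SE 0.43, limma adjusted p = 0.7928), which became -0.22 without WT 2.

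Elane had 4.11, 4.15, 4.55 and 4.05 on the E2A knockout arrays, 3.91 and 4.38 on the HEB knockout arrays, and 4.47 and 4.46 on the WT arrays. It was the least variable of the 10 and lay slightly above the array median on all 8 arrays. Its intensity was 15.0 to 23.4, against array medians of 14.11 to 15.38, and low RMA values understate differences. Both HEB knockout arrays lay below both WT arrays, as held for 11.4% of all genes. The E2A knockout to WT difference was -0.25 (SE 0.23, limma adjusted p = 0.6602).

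Ctsg encodes cathepsin G, another serine protease of the primary granule. Its log2 intensity was 7.80, 9.49, 8.20 and 6.07 on the E2A knockout arrays, 7.72 and 8.22 on the HEB knockout arrays, and 7.96 and 6.88 on the WT arrays. It varied most of the 4, and its highest and lowest arrays were both E2A knockout arrays, numbers 2 and 4. The E2A knockout to WT difference was 0.47 (SE 0.77, limma adjusted p = 0.8089), and without WT 2 it was -0.07.

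The primary granule genes varied less closely together than the secondary granule and S100 genes. This is a description only, since the HEB knockout values that led to the choice of the genes enter the correlations. The 6 primary pairs had Pearson r between -0.37 (Mpo with Elane) and 0.73 (Prtn3 with Ctsg), with a median of 0.22. Elane lay near the array median, and the pairs without it had r of 0.18 (Mpo with Prtn3), 0.60 (Mpo with Ctsg) and 0.73. The 24 pairs of a primary with a secondary or S100 gene had a median of 0.17. The mean of the 4 genes per array was 7.87, 8.54, 8.28 and 7.18 in E2A knockout, 7.87 and 8.14 in HEB knockout, and 7.88 and 7.46 in WT cells, so the genotypes overlapped. Without Elane the mean was 8.22 to 10.01 in E2A knockout, 9.19 and 9.39 in HEB knockout, and 9.02 and 8.46 in WT cells. There both HEB knockout arrays lay above both WT arrays, as held for 23.4% of all genes tested, each taken singly. Of the genes in that mean only Mpo did so, while Prtn3 and Ctsg overlapped. Nothing is read from it, because HEB knockout values led to the choice of the genes. On E2A KO 3, where 5 of the 6 other genes were well above the other E2A knockout arrays, Mpo differed from the mean of those arrays by -0.13 log2 units, Prtn3 by 0.92, Elane by 0.45 and Ctsg by 0.41.

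The promoters of the primary granule genes are shown because all 4 hold the letters GAGGAAG, a form of the site bound by ETS factors such as PU.1, within the 300 bases examined. The match was on either strand, and 13.6% of 32851 RefSeq promoters of that length hold it, as do Lcn2 and S100a8 among the other members. Each stretch is 60 bases of GRCm38.p6, with the letters in capitals.
Mpo, chr11:87793534-87793593, plus strand: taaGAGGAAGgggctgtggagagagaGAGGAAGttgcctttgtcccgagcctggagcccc
Elane, chr10:79886207-79886266, plus strand: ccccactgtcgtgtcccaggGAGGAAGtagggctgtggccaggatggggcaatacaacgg
Prtn3, chr10:79879552-79879611, plus strand: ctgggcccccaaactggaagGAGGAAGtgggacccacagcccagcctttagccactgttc
Ctsg, chr14:56102751-56102810, minus strand: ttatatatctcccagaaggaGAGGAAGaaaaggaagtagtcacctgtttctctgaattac
The first match began 247 bases before the start in Mpo, 85 in Elane, 95 in Prtn3 and 216 in Ctsg. The C/EBP core letters, searched on both strands, were in 0 of 4 primary granule promoters, 3 of 4 secondary granule promoters and 2 of 2 S100 promoters, against 40.7% of all promoters. E box letters, on both strands, were in 6 of the 10 promoters (Ctsg, Ltf, Camp, Lcn2, S100a8 and S100a9) and in 72.3% of all, and the TATA box letters, on the gene's strand, in 2 of the 10 (S100a8 and S100a9) and in 8.3% of all. A match describes letters and not a bound site.

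Among genes outside the 10, Chil3, which encodes the chitinase-like protein Ym1 of mouse neutrophil precursors and macrophages, had the pattern most like the secondary granule mean (Pearson r 0.987, Spearman rho 0.79, 8 arrays, 11947 genes compared). Its log2 intensity was 2.56, 2.66, 6.61 and 2.40 on the E2A knockout arrays, 5.71 and 8.17 on the HEB knockout arrays, and 2.62 and 4.01 on the WT arrays. The r was 0.98 when HEB KO 2 and E2A KO 3, the arrays farthest from the median, were left out. The next were Simc1 (0.965), Lbp (0.955), Hoxa7 (0.934), Cables2 (0.931), Tmem273 (0.930), Hsbp1 (0.925) and Dync1li2 (0.924), whose own ranges were far narrower, 0.41 log2 units for Hoxa7 and 1.47 for Tmem273. For the primary granule mean the closest were Cyp2a12 (0.952), Xkr5 (0.938), Cks1b (0.928), Pnpt1 (0.925), 1700120C14Rik (0.920), Foxf1 (0.918), Mxra8 (0.915) and Gnmt (0.915). Their r was 0.72 to 0.86 without E2A KO 2 and 4, the arrays farthest from the median of that mean. Their ranges ran between 0.42 (Foxf1) and 1.82 (Pnpt1) log2 units. Both lists are the top of 11947 genes over 8 arrays, and how high such an r runs by chance was not tested.

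The promoters of Ngp and Chil3 are given for comparison with S100a8, since both hold 3 matches to the C/EBP core letters in the 300 bases. The stretches cover 150 bases before to 50 after the start, at chr9:110419658-110419857 on the plus strand for Ngp and chr3:106167515-106167714 on the minus strand for Chil3. Capitals mark C/EBP core letters and, in Chil3, also the letters TATAAA, which begin 3 bases before the annotated start and run across it.
Ngp: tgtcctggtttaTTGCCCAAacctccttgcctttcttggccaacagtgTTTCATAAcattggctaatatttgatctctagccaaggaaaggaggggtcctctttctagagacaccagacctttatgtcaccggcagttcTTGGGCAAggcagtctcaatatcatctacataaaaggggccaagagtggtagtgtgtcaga
Chil3: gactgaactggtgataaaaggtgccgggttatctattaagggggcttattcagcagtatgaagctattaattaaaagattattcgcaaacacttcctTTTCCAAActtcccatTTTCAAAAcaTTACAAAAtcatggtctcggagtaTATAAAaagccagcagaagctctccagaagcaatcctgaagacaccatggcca

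The rest of the neutrophil programme was followed in lists of further genes, and none of their tested members was called in any of the 3 comparisons. Of 11 other secondary granule genes 6 were tested, Chil3 among them, and Mmp8, Olfm4, Pglyrp1, Cd177 and Itgam were below the median of every array. The median E2A knockout to WT difference of the 6 was 0.28 (all genes -0.053) and the median HEB knockout to WT difference was 0.33 (all genes 0.086). The smallest p-values in E2A knockout against WT were those of Hp, haptoglobin, with 5.37, 6.07, 5.58 and 6.40 in E2A knockout and 4.32 and 4.40 in WT cells (log2 difference 1.49, SE 0.37, limma adjusted p = 0.1310), and of Cybb, a subunit of the phagocyte oxidase (1.06, limma adjusted p = 0.5239).

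Of 8 other primary granule genes 5 were tested, with a median of 0.17 in E2A knockout and 0.19 in HEB knockout against WT cells. Prss57, Bpi and Cd63 had no single-gene probe set. Serpinb1a, an inhibitor of neutrophil serine proteases, differed by -0.47 (limma adjusted p = 0.4118) and Ms4a3, a membrane protein of granulocyte-monocyte progenitors, by 0.44 (limma adjusted p = 0.4138) between E2A knockout and WT cells. Of 16 late neutrophil genes 7 were tested, with medians of -0.04 and -0.05 in the same comparisons. Fpr1, Retnlg, Stfa1, Stfa2, Mmp25 and Ly6g had no single-gene probe set, so the medians do not cover them. Csf3r, the receptor of granulocyte colony-stimulating factor, differed by -0.88 (limma adjusted p = 0.1850) and Clec4d, a C-type lectin receptor, by 1.46 (limma adjusted p = 0.2462) in E2A knockout against WT cells. Padi4 passed the threshold only when E2A KO 3 was left out, at -1.86 against WT (limma adjusted p = 0.0161) and -1.81 against HEB knockout cells (limma adjusted p = 0.0426). Of 10 regulators of granule genes 9 were tested, with medians of -0.05 and 0.07. The medians do not cover Cebpe, which had no single-gene probe set. In E2A knockout against WT cells Gfi1 differed by -0.47 (limma adjusted p = 0.4011) and Cebpd by -1.16 (limma adjusted p = 0.4118).

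Markers of other cell types were set beside the secondary granule and S100 levels. The summed intensity of 10 late neutrophil genes was 184 to 254 on E2A knockout, 231 and 265 on HEB knockout and 219 and 286 on WT arrays, and Stfa3 and Trem3 were below every array's median. Single genes differed from the sum. Mmp9 was highest on HEB KO 2, at 4.86 log2 units against 3.71 to 4.16 on the other arrays. Csf3r was also highest there, at 6.36 against 5.03 to 6.29. The other late neutrophil genes were highest on an E2A knockout or WT array. The 6 monocyte and macrophage markers summed to 139 to 223 on E2A knockout arrays. They summed to 325 and 413 on HEB knockout and 300 and 268 on WT arrays, with Adgre1 below every median. That sum was carried by Lyz2, at 7.70 and 8.34 on the HEB knockout and 7.53 and 7.36 on the WT arrays, and the mean log2 level of the list was 4.88 and 4.77 on the HEB knockout against 4.85 and 4.74 on the WT arrays. The 4 eosinophil markers summed to 31 to 39 on E2A knockout, 35 and 73 on HEB knockout and 31 and 44 on WT arrays. HEB KO 2 was thus highest here too. Epx (4.61 log2 units), Prg2 (4.56) and Prg3 (4.29) were highest there, but Il5ra, below every array's median, was not. Epx and Prg2 were above the array median on HEB KO 2 alone and were not tested. On E2A KO 3 they lay at 2.81 and 2.56. The 7 granulocyte-macrophage progenitor markers summed to 4015 on E2A KO 3, the lowest of the 8 arrays, to 6258 to 7786 on the other E2A knockout arrays, to 8083 and 6272 on the HEB knockout arrays and to 5512 and 6176 on the WT arrays. Irf8 was the largest part of this sum, at 10.60 log2 units on E2A KO 3 and 11.78 to 12.05 on the other E2A knockout arrays. The 7 markers did not move together on E2A KO 3. Among the E2A knockout arrays Irf8, Ly86, Csf2ra and Csf2rb were lowest there. Cd34 (10.23) and Csf1r (8.10) were highest there, and Fcgr3 lay in between. The part of these cell types in the granule gene levels was not tested.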

How the data were processed

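Gene expression was measured on 8 Affymetrix arrays. The deposited values are linear RMA intensities per probe set, as the submitters' processing notes name RMA; its version was not stated. They were put on a log2 scale without further normalization. Of 45101 probe sets, 34945 name 1 gene, 932 several and 9160 none in the platform annotation. The brightest probe set stood for each gene, and genes above the median intensity on 2 or more arrays were tested, 11957 in all. All 10 members passed, S100a8 and S100a9 on 4 arrays and Lcn2 on 3, among them those where they were high. A single fit in limma 3.58.1 under R 4.3.3 gave each genotype its own mean over the 8 arrays, with two-sided tests and Benjamini-Hochberg adjustment over all genes. The arrays number 4, 2 and 2 per genotype, which limits precision. The script was tested on simulated data. Genes named were all members, Tcf3, Tcf12, Flt3, Il7r, of each companion list the called members or else the 2 with the smallest p in E2A knockout against WT, and the 8 genes most like each granule mean. Genes named beside these (Chil3 in the 4-fold count, Epx, Prg2, Prg3, Mmp9, Ly6d, Rag1, Vpreb1, Lyz2, Padi4, Il1b and genes below the median) were chosen after their values were seen. The members and lists were chosen with earlier results of these data known. Promoters are RefSeq sequences of GRCm38.p6, matched by symbol for 10 of 10 members. Alternatives covered the filter, centring, cyclic loess, probe set choice, eBayes with trend and robust, the genotypes fitted, a replicate block and each array left out. A covariate for the hybridization controls, a fit lacking both WT 2 and HEB KO 1 (the arrays of their pairs high in Ly6d), and a crossed block were added after seeing the data.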

Additional observations from a re-analysis of the deposited data

Results flagged for a closer look

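Among 37 genes examined in the 4 E2A knockout arrays, 4 had 1 array far from the other 3, judged by the gap to the nearest array divided by the range (Dixon's ratio). The 37 were the 10 granule genes and the tested genes of the other primary, other secondary, late neutrophil and regulator lists. If the 4 values of a gene were independent and normal, chance would give this for about 1 in 20 genes. The share among all genes tested was not computed, so the count has no measured background. For each of the 4 genes the array was E2A KO 3, on the high side. That array also had the highest hybridization and poly-A controls, and their part in this was not tested. The ratio was 0.857 for S100a8, 1 of the 10 granule genes. It was 0.938 for Chil3, at 6.61 on E2A KO 3 and 2.40 to 2.66 on the others. It was 0.881 for Padi4, an enzyme of neutrophil chromatin citrullination, at 5.71 on E2A KO 3 and 3.42 to 3.69 on the others, with 5.16 and 5.70 in WT cells. It was 0.852 for Il1b, which encodes interleukin 1 beta, at 4.92 on E2A KO 3 and 4.18 to 4.29 on the others. The genes share an array, so these are not separate observations.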

How the results depend on the processing

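No granule gene was called in E2A knockout against WT cells under any alternative in which it was tested. Elane, Ltf and Lcn2 were not tested with the filter at the 75th percentile. Lcn2 was also not tested with only the compared genotypes, or with WT 2 and HEB KO 1 both left out. All genes called in E2A knockout against WT numbered 53 as reported, 91 under eBayes with trend and robust, 26 with only the compared genotypes, 12 with a replicate block, 1 with the hybridization control level as covariate, 0 with WT 2 and HEB KO 1 both left out, and 2 (without WT 2) to 104 (without E2A KO 3) with 1 array left out. For E2A against HEB knockout the count was 14, and 42, 6, 3, 1 and 0 under the same settings in that order, 1 with every probe set on its own, 7 with a crossed block and 1 to 21 with 1 array left out. In that comparison 1 granule gene passed the threshold under eBayes with trend and robust (Lcn2) and 1 with the replicate block (Ngp), but HEB knockout values chose the genes, so neither is a test of them.

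The median E2A knockout to WT difference of primary granule genes was 0.37, -0.14 with WT 2 and HEB KO 1 left out, and -0.14 to 0.68 with 1 array left out. That of secondary granule genes was 0.19, -1.09 with the hybridization control covariate, and -0.58 to 0.61 with 1 array left out. For HEB knockout against WT the secondary median was 2.84, and 1.81 to 3.87 with 1 array left out. With WT 2 and HEB KO 1 left out it was 4.33, without Lcn2, which was not tested there. The primary median was 0.54, and 0.02 to 0.71 with 1 array left out. An array left alone in its genotype is assumed to vary like the others.

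Single E2A knockout to WT differences changed sign, all with adjusted p above the threshold. With the replicate block Ltf was -0.20, Camp -0.78 and Ngp -1.14. With the hybridization control covariate Prtn3 was -0.42, Ltf -0.95, Camp -0.95 and Ngp -1.35. With WT 2 and HEB KO 1 left out Prtn3 was -0.22, Ctsg -0.07, S100a8 1.48 and S100a9 1.04. With 1 array left out Prtn3 ran between -0.22 and 0.78, Ctsg -0.07 and 1.08, Ltf -0.33 and 0.40, Camp -0.49 and 0.88, Ngp -0.80 and 1.38, S100a8 -2.04 and 1.48, and S100a9 -1.55 and 1.04. Lcn2 kept its sign, at -1.22 with the hybridization control covariate and -0.82 to -0.09 with 1 array left out. The cause was not tested.

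The deviations of same-numbered arrays had r of -0.28 for HEB KO 1 with WT 1, -0.15 and -0.09 for E2A KO 1 and 2 with WT, and 0.15 and -0.01 for E2A KO 1 and 2 with HEB KO, so the numbers are not taken as pairs.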
